A study of Mus musculus with 4 samples.

Results

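Integrins are adhesion receptors made of 1 alpha and 1 beta chain, and 10 genes of these chains that T cells use were followed here in CD8 T cells overexpressing the AP-1 factor BATF. The rows were found by gene symbol in the deposited expression table. All 10 symbols were present among 24312 listed genes, 6 of them alpha chains (Itga4, Itga6, Itgae, Itgal, Itgav, Itgax) and 4 beta chains (Itgb1, Itgb2, Itgb3, Itgb7). Poly(A) RNA had been sequenced from P14 CD8 T cells on a C57BL/6 background, which carry a transgenic receptor for the gp33 peptide of lymphocytic choriomeningitis virus. Both groups were activated with 100 ng/ml gp33 for 1 day and spin transduced. The control group received the retrovirus MSCV-IRES-GFP (MIG), and the BATF group received MIG-BATF, the same vector with BATF added. After 1 more day of activation, both groups grew in 10 ng/ml IL-2 over 2 days, were sorted as CD8+ GFP+ cells and were kept for 2 further days in 1 ng/ml IL-2. Each group had 2 libraries, called biological replicates by the series' design text. Nothing in the labels says that they came from separate mice, so the spread behind the p-values is that of these libraries and may be technical in part. BATF was added from a retroviral vector in cultured cells, so the comparison is one of overexpression, and the control cells carry the vector and GFP too.

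Integrins exist at the cell surface only as heterodimers. A chain without a partner is largely retained inside the cell, which is why alpha and beta chains are described as pairs below. The beta2 integrin LFA-1 (Itgal with Itgb2) binds ICAM proteins and holds the T cell to its target. CD11c, the alpha chain encoded by Itgax, pairs with Itgb2, is best known from dendritic cells and also appears on activated CD8 T cells. VLA-4 (Itga4 with Itgb1) binds VCAM-1 and fibronectin, and alpha4beta7 (Itga4 with Itgb7) binds MAdCAM-1 and guides T cells to the gut. CD103, the alpha chain encoded by Itgae, pairs with Itgb7 to bind E-cadherin and retain T cells in epithelia. The laminin receptor alpha6beta1 (Itga6 with Itgb1) and the alphaV integrins (Itgav with Itgb1 or Itgb3), which bind vitronectin, fibronectin and latent TGF-beta, complete the set.

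The libraries held 19004726 to 24795707 fragments, and between 12871 and 13227 genes reached 10 fragments in a library. The overexpressed gene Batf had 36.1 and 26.5 CPM (fragments scaled to the depth of the library) in MIG against 1342 and 934 CPM in BATF, a difference that follows the labels. Of the 9 CD8 T cell markers listed, all were abundant, with Cd8a between 423 and 750 CPM, and Cd4 stayed under 0.80 CPM in every library. The difference between groups was tested over all 13008 genes that passed the filter on low counts, with edgeR's quasi-likelihood test on the rounded fragment counts and Benjamini-Hochberg adjustment over all of them. All 10 integrin chains passed that filter.

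Promoter windows of 5 of the 10 genes were in the RefSeq table (build GRCm38.p6), and 3 are shown because their genes carry the main observations: Itgax came closest to a call, Itgb7 was the most abundant chain, and Itga4 had the widest spread between libraries. Each is the 250 bases before the annotated transcription start, 5′ to 3′ on the gene's strand, with the AP-1 heptamer TGANTCA in capitals. The Itgax window is chr7:128129300-128129549 (plus strand), the Itgb7 window chr15:102231936-102232185 (minus strand) and the Itga4 window chr2:79255176-79255425 (plus strand).
Itgax: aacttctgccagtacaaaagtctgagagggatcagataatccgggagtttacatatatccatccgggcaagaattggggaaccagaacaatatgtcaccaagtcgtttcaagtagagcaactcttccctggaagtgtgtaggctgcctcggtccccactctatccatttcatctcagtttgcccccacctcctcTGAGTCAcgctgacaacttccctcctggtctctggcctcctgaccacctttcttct
Itgb7: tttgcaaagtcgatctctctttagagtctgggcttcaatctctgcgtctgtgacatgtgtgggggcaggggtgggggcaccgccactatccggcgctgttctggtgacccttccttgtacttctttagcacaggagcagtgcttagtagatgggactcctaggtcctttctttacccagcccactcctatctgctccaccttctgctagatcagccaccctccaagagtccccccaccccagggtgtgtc
Itga4: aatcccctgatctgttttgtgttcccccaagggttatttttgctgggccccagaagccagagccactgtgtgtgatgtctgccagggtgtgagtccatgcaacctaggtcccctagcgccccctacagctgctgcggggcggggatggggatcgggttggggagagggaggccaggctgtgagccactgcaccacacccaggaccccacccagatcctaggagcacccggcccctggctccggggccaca
TGANTCA, which reads the same on both strands, is the element that BATF-JUN and other AP-1 dimers bind. Of the 5 windows, that of Itgax held it, as TGAGTCA beginning 56 bases before the start site. Those of Itga4, Itgav, Itgb1 and Itgb7 did not. Over all 32851 promoter windows of the same length, 6.75% held the heptamer. A pair of AP-1-IRF composite elements, in which the heptamer lies next to an IRF half-site or a few bases from it, was searched on both strands as well. Neither was in any of the 5 windows, and they were in 33 and 32 of the 32851 windows. A match is a description of the sequence, and no binding was measured here.

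By level, the integrin repertoire of these cells was dominated by Itgb7 and by the 2 chains of LFA-1. The levels of different genes are compared on the authors' FPKM scale, which divides by transcript length. Itgb7 stood at 504 and 412 FPKM in MIG and at 542 and 449 FPKM in BATF, and by its mean it ranked at 191 among all genes listed. Itgb2 followed with 181 and 155 FPKM in MIG and 186 and 188 in BATF. Itgal had 158 and 123 FPKM in MIG and 133 and 127 in BATF. The lowest Itgb7 library lay above the highest Itgb2 library, whereas the ranges of Itgb2 and Itgal overlapped, although Itgb2 was above Itgal within each of the 4 libraries.

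A middle tier held Itgae, Itgb1 and Itga4. Itgae ranged from 47.5 to 88.1 FPKM over the 4 libraries, Itgb1 from 54.7 to 87.1 and Itga4 from 25.5 to 59.9. These 3 ranges overlapped from one to the next, although Itgb1 was above Itga4 within each of the 4 libraries and Itgae above Itgb1 in 3 of them. The highest Itgae value lay below the lowest Itgal value. The low tier held Itgav (8.56 to 11.3 FPKM), Itgb3 (6.14 to 11.2), Itga6 (6.61 to 8.00) and Itgax (4.73 to 8.75), whose ranges again overlapped in that order. No library of the low tier reached the lowest Itga4 value. A further 16 mouse integrin chains were looked up and added little. The 10 chains together held 99.2% to 99.3% of the FPKM of these 26 chains in every library, and Itgb7 alone held 45.6% to 49.5%.

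**Figure D1:**
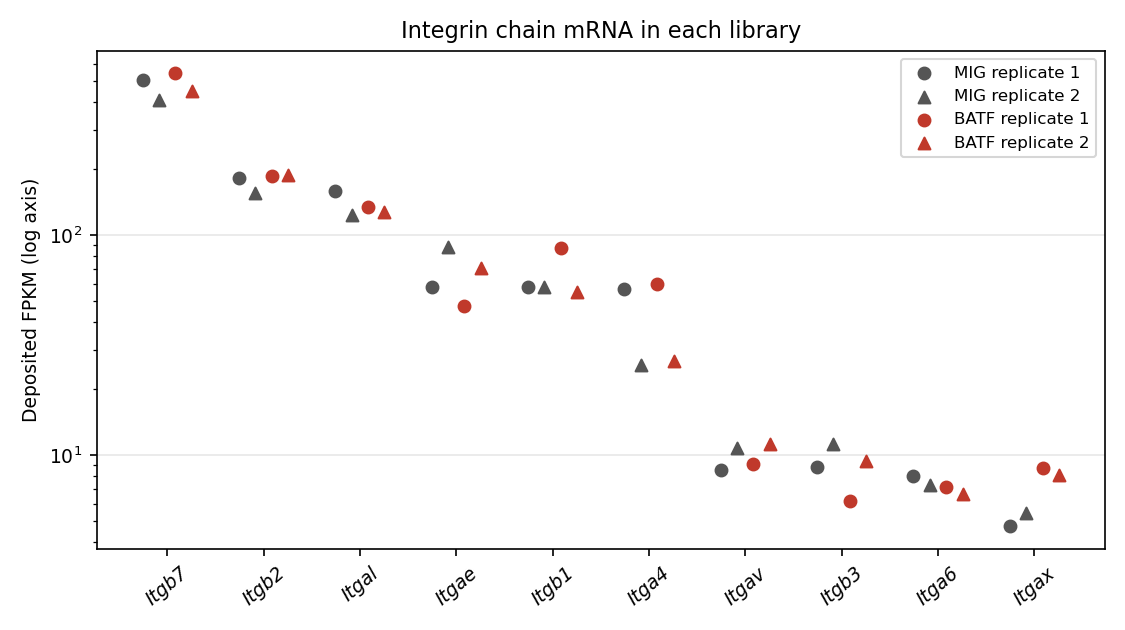
Deposited FPKM (log axis) of the 10 integrin chains in each of the 4 libraries, ordered by mean level; grey marks MIG and red BATF, circles replicate 1 and triangles replicate 2. Itgb7 lies above all other chains at 412 to 542 FPKM, and for Itga4 the circles of both groups lie above both triangles.

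Between BATF and MIG cells, 0 of the 10 integrin chains passed the edgeR test in either direction. Among all 13008 genes 142 passed, which is 1.09% (0.884% higher and 0.208% lower). With no adjustment, 1 chain had a p under 0.05, Itgax, against 10.8% of all genes. DESeq2, which called 2.73% of all genes, called the same chain and no other, and limma on log2(FPKM + 1) called 0. With libraries blocked by replicate number, edgeR called 4 of the 10 chains (Itgax, Itgb1, Itgae and Itgb3) against 11.6% of all genes. That fit leaves 1 residual degree of freedom, and the numbers were not shown to pair the samples. The median log2 fold change of the 10 chains was 0.08, with 6 positive and 4 negative, against -0.01 over all genes tested. The libraries of the groups did not overlap in 3 of the 10 chains, Itgax and Itgb2 higher and Itga6 lower, against 38.7% of all genes (19.2% higher and 19.4% lower).

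Itgax, which encodes CD11c, was the chain with the largest difference. Its levels were 18.1 and 21.6 CPM in MIG and 34.4 and 31.5 CPM in BATF. Both BATF libraries lay above both MIG libraries, and the groups were further apart than the libraries within them. The log2 fold change was 0.73 ± 0.14 SE, a 1.66-fold difference with a 95% interval from 1.33 to 2.08, and the adjusted p of 0.0716 missed the threshold of 0.05 (edgeR quasi-likelihood test, n = 2 per group). It passed in DESeq2 (adjusted p = 0.00265), with no filter on low counts (0.0125) and without MIG replicate 2 (0.00191). Over the alternatives the adjusted p ranged from 1.07e-07 (libraries blocked by number) to 0.148, and the log2 fold change was positive in each. In bulk RNA, a change in the number of expressing cells and a change in the RNA per cell cannot be told apart.

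Because CD11c also marks dendritic cells, the markers of that lineage are given beside it. Of 12 myeloid and dendritic markers listed, 11 were in the table, and their summed level was 6.41 and 9.22 CPM in MIG and 12.0 and 12.4 CPM in BATF. Most of that sum was Xcr1, with 4.29 and 5.92 CPM in MIG and 7.59 and 9.42 in BATF, a chemokine receptor of cross-presenting dendritic cells (edgeR adjusted p = 0.238). The other 10, among them Lyz2, Csf1r, Clec9a, Flt3, Zbtb46 and H2-Aa, reached at most 0.873 CPM in any library, and none was at 0 in all of them. Without Xcr1 the sum was 2.12 and 3.30 CPM in MIG and 4.38 and 2.99 in BATF, which overlap, while Itgax was at 18.1 to 34.4 CPM in the same libraries. The part of these cells in the Itgax difference was not tested.

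The partner of Itgax, the beta2 chain Itgb2, stood at 481 and 429 CPM in MIG and 508 and 506 CPM in BATF. The BATF libraries were both higher, by a small margin (log2 fold change 0.16 ± 0.09 SE, edgeR adjusted p = 0.633). Its main partner Itgal had 793 and 641 CPM in MIG and 689 and 644 CPM in BATF, and there the groups overlapped (log2 fold change -0.11 ± 0.11 SE, edgeR adjusted p = 0.889). On the log2 scale, the 95% interval of Itgal ran from -0.38 to 0.17 and that of Itgb2 from -0.05 to 0.36. The other alpha partners of Itgb2 were rare: Itgam, the alpha chain of Mac-1, ranged from 2.62 to 7.68 CPM and Itgad from 0.505 to 1.16 CPM.

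For the beta7 integrins, Itgb7 stood at 1244 and 1055 CPM in MIG and 1378 and 1124 CPM in BATF. Replicate 1 was the higher library in both groups, and the groups overlapped (log2 fold change 0.12 ± 0.13 SE, edgeR adjusted p = 0.882). Itgae, which encodes CD103, stood at 211 and 332 CPM in MIG and 178 and 259 CPM in BATF. Here replicate 2 was the higher library in both groups, and the groups overlapped as well (log2 fold change -0.31 ± 0.24 SE, edgeR adjusted p = 0.794). BATF was 0.842 times MIG between the libraries numbered 1 and 0.781 times between those numbered 2. The log2 fold change was 0.042 without MIG replicate 2. In the RefSeq table Itgae overlaps Haspin, a mitotic kinase gene listed here under its older symbol Gsg2. Gsg2 had 64.1 and 64.2 CPM in MIG and no more than 69.0 CPM in any library, without the spread of Itgae. The sources used here do not give the strandedness of the libraries, so a part of the fragments could have been assigned to either gene.

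Itga4, the alpha chain shared by VLA-4 and alpha4beta7, had the widest spread of the 10 chains. It stood at 545 and 255 CPM in MIG and at 594 and 261 CPM in BATF. Replicate 1 was 2.14-fold above replicate 2 in MIG and 2.28-fold above it in BATF, whereas BATF was 1.09-fold above MIG between the libraries numbered 1 and 1.02-fold between those numbered 2. The group difference (log2 fold change 0.09 ± 0.44 SE, edgeR adjusted p = 0.986) had a 95% interval from -0.95 to 1.14 on the log2 scale, the widest of the set. Its sign turned without MIG replicate 2 (-0.36) and without BATF replicate 1 (-0.62), and leaving out MIG replicate 1 gave 0.75 and leaving out BATF replicate 2 gave 0.57. Itga4 overlaps Cerkl in the RefSeq table, which stood at 4.27 to 7.65 CPM.

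The beta1 chain Itgb1, the common partner of Itga4, Itga6 and Itgav, stood at 231 and 239 CPM in MIG and at 358 and 221 CPM in BATF. BATF replicate 1 stood above the other 3 libraries, and the groups overlapped. The log2 fold change was 0.30 ± 0.20 SE (edgeR adjusted p = 0.737), and it turned to -0.09 without BATF replicate 1, so the positive value rests on that library. BATF was 1.55 times MIG between the libraries numbered 1 and 0.925 times between those numbered 2. Itga6, the alpha chain of the laminin receptor, stood at 46.5 and 43.7 CPM in MIG and 43.0 and 38.9 CPM in BATF. Both BATF libraries were lower, by less than the test could call (log2 fold change -0.14 ± 0.10 SE, edgeR adjusted p = 0.771).

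Itgav, the alphaV chain, stood at 58.6 and 76.6 CPM in MIG and 64.2 and 78.1 CPM in BATF, with replicate 2 higher in both groups (log2 fold change 0.08 ± 0.15 SE, edgeR adjusted p = 0.954). Itgb3, its partner and also the platelet beta chain, stood at 49.2 and 64.9 CPM in MIG and 35.3 and 53.1 CPM in BATF. Replicate 2 was again the higher library in each group, and the groups overlapped (log2 fold change -0.37 ± 0.21 SE, edgeR adjusted p = 0.655). BATF was 0.717 times MIG between the libraries numbered 1 and 0.818 times between those numbered 2, and the log2 fold change ran from -0.69 to -0.10 with 1 library left out. Platelet and megakaryocyte markers, of which 7 were listed, summed to 1.47 and 3.49 CPM in MIG and to 1.63 and 1.47 CPM in BATF, far below Itgb3, and the platelet partner Itga2b did not exceed 0.728 CPM. The part of platelets in the Itgb3 level was not tested.

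**Figure D2:**
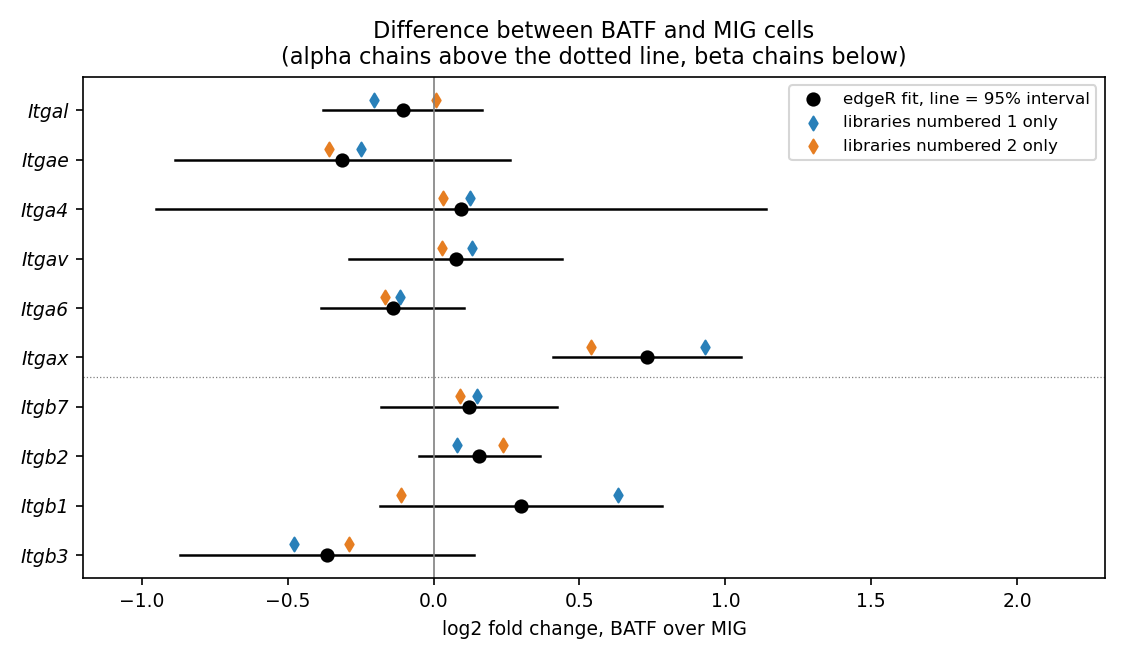
Log2 fold change of BATF over MIG for the 6 alpha chains (above the dotted line) and the 4 beta chains; black points are edgeR estimates with their unadjusted 95% intervals, blue and orange diamonds compare the libraries numbered 1 and those numbered 2 alone. The interval of Itgax (0.41 to 1.05) lies above 0, and the intervals of the other 9 chains cross it.

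Taken as pairs, some chains were close in mRNA, as Itgav and Itgb3 in MIG, and others were far apart, with the beta chain in excess. Itgb7 exceeded the sum of its alpha partners Itga4 and Itgae 4.39-fold and 3.62-fold in MIG and 5.04-fold and 4.62-fold in BATF, on the FPKM scale. Itgb2 exceeded the sum of Itgal, Itgax, Itgam and Itgad by less, from 1.10-fold in MIG replicate 1 to 1.39-fold in BATF replicate 2. For Itgb1, which has further partners, the ratio to the sum of Itga4, Itga6 and Itgav was 0.792 and 1.33 in MIG and 1.14 and 1.23 in BATF. Itga4 is counted in full in the sums for Itgb7 and for Itgb1, and Itgav also pairs with Itgb3. These are ratios of transcripts, and no protein was measured.

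The pairs of Itga4 and of Itgae with the beta7 chain share Itgb7, and their alpha chains ran opposite to each other between libraries. The sum of Itga4 and Itgae was 115 and 114 FPKM in MIG and 107 and 97.1 FPKM in BATF. It was thus lower in both BATF libraries, a difference that was not tested. Within that sum, Itga4 and Itgae were close to each other in the libraries numbered 1 (56.6 and 58.2 FPKM in MIG, 59.9 and 47.5 in BATF). In the libraries numbered 2 Itgae was well above Itga4 (88.1 against 25.5 FPKM in MIG, 70.4 against 26.7 in BATF). The log2 ratio of Itga4 to Itgb7 was -3.15 and -4.01 in MIG and -3.18 and -4.07 in BATF, and that of Itgae to Itgb7 was -3.11 and -2.22 in MIG and -3.51 and -2.67 in BATF. Both ratios overlapped between the groups and differed more between the replicates. The BATF minus MIG difference was -0.04 for Itga4 to Itgb7 (-0.49 to 0.41 with 1 library left out). For Itgae to Itgb7 it was -0.42 (-0.87 to 0.02), and BATF was lower within both replicate numbers.

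Of the 8 pairs described, the ratio did not overlap between groups in 4. The level did not overlap in 38.7% of all single genes, but no such share was computed for ratios. The 8 pairs share chains, and their ratios are given as values with no test. The log2 ratio of Itgal to Itgb2 (LFA-1) was -0.20 and -0.34 in MIG and -0.48 and -0.57 in BATF, a difference of -0.26 (-0.33 to -0.19 with 1 library left out). That of Itgax to Itgb2 was -5.26 and -4.83 in MIG and -4.41 and -4.53 in BATF, a difference of 0.58, which was 0.36 without MIG replicate 1 and at most 0.79 with another library left out. Itgb2 was 28.5 to 38.3 times as abundant as Itgax in MIG and 21.2 to 23.1 times in BATF. The log2 ratio of Itgav to Itgb3 was -0.05 and -0.06 in MIG and 0.57 and 0.26 in BATF, a difference of 0.46 (0.31 to 0.62 with 1 library left out). That of Itga6 to Itgb1 was -2.86 and -2.99 in MIG and -3.60 and -3.05 in BATF, and BATF replicate 1, the library with high Itgb1, was the lowest. That difference was -0.40, and -0.13 without BATF replicate 1 (-0.68 without BATF replicate 2). The ratios of Itga4 to Itgb1 and of Itgav to Itgb1 overlapped between the groups.

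**Figure D3:**
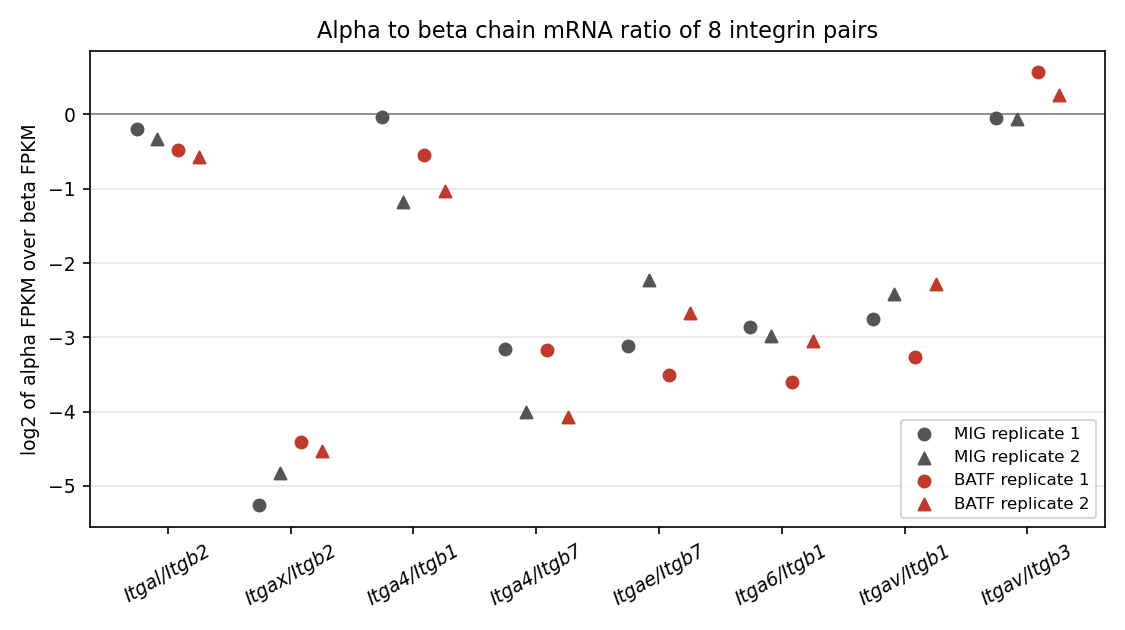
Log2 ratio of alpha to beta chain FPKM for 8 integrin pairs in each library; grey marks MIG and red BATF, circles replicate 1 and triangles replicate 2, and 0 means equal FPKM. The Itgax/Itgb2 ratio is higher in both BATF libraries (-4.41 and -4.53) than in both MIG libraries (-5.26 and -4.83), while the Itga4/Itgb7 and Itgae/Itgb7 ratios separate circles from triangles.

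In most chains, as in most genes of at least 5 CPM, the libraries of both groups differed in the same direction by replicate number. In 8 of the 10 chains the library numbered 1 differed from that numbered 2 in the same direction in MIG and in BATF. The share was 65.8% of the 9361 genes of at least 5 CPM. Some of these differences were small, as in Itgb2, 1.12-fold in MIG and 1.005-fold in BATF. Itgae was 1.57-fold and 1.46-fold higher in replicate 2 than in replicate 1, in MIG and BATF in turn, Itgb3 1.32-fold and 1.51-fold, and Itgav 1.31-fold and 1.22-fold. Itga4 had the opposite direction. Itgax and Itgb1 were the chains in which the direction differed between the groups. The median absolute log2 difference of the 10 chains was 0.29 between replicate numbers and 0.15 between BATF and MIG, against 0.10 and 0.09 over the genes of at least 5 CPM. No label says what the replicate number stands for, and the difference between numbers was not itself tested.

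**Figure D4:**
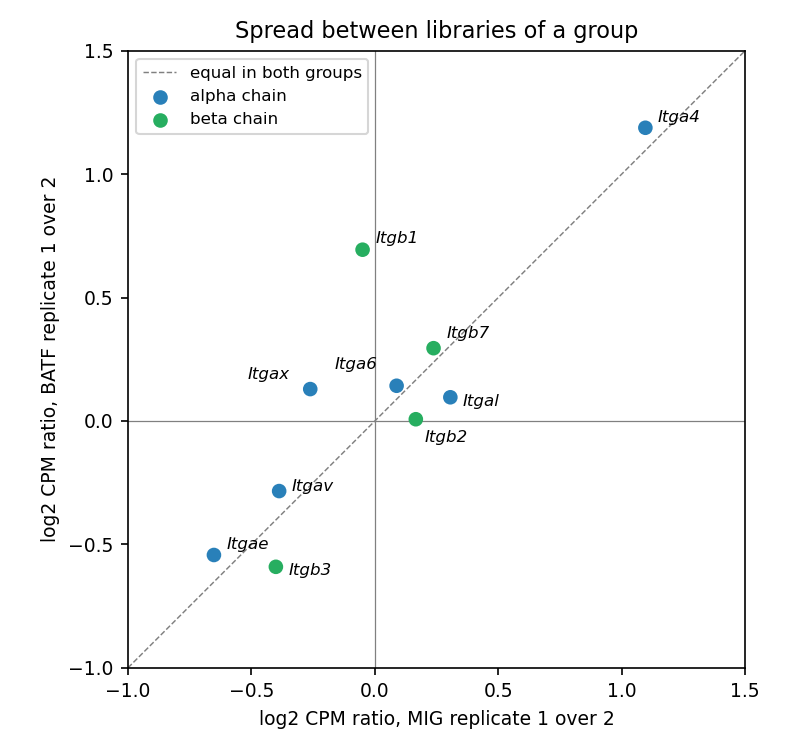
Log2 CPM ratio of replicate 1 over replicate 2 in MIG (horizontal axis) and in BATF (vertical axis) for the 10 integrin chains, alpha chains in blue and beta chains in green; the dashed line marks equal ratios. Itga4 lies at the upper right (2.14-fold and 2.28-fold) and Itgae and Itgb3 at the lower left, while Itgb1 lies off the line, with BATF replicate 1 as its high library.

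The genes whose libraries were patterned most like 2 of the chains were found by the Euclidean distance of centred log2 CPM over the 4 libraries, among 9360 other genes of at least 5 CPM. For Itgax they were Rbpj (distance 0.143), which binds DNA for the Notch pathway, Fmnl3 (0.143), a formin that builds actin filaments, and Stx11 (0.143), a syntaxin of cytotoxic granule release. Rbpj stood at 219 and 253 CPM in MIG and 401 and 414 CPM in BATF, and Stx11 at 16.0 and 16.8 CPM and 28.6 and 27.2 CPM. For Itgb3 they were Fhl2 (0.0944), Ppm1h (0.107) and Trio (0.115). With 4 libraries many genes lie near any pattern, and the distance is a description.

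Among other genes of the integrin system 1 passed. Of 12 tested among the 16 other chains 0 passed, with 1 at an unadjusted p under 0.05 (10.8% of all genes). That chain was Itga1, the collagen-binding alpha chain of VLA-1, at 2.00 and 4.13 CPM in MIG and 5.96 and 8.23 CPM in BATF. Its log2 fold change was 1.23 (edgeR adjusted p = 0.224), and DESeq2 called 1 chain of this list. Itga2, the most abundant of them by the mean over the 4 libraries, ranged from 5.01 to 6.75 CPM. Of 38 tested activation and adaptor genes, which switch integrins on from inside the cell and tie them to actin, 1 fell and 0 rose, against 1.09% of all genes called. It was Actn1, which encodes the actin cross-linker alpha-actinin 1 that binds beta chain tails, from 279 and 223 CPM in MIG to 106 and 125 CPM in BATF. Its log2 fold change was -1.11 (edgeR adjusted p = 0.0212). This call did not hold with limma on log2(FPKM + 1) (adjusted p = 0.0658; 3.66e-41, blocked by number, to 0.0658 over the alternatives). The median of that list was -0.04. Among its members Tln1, which encodes the talin that opens integrins, was level at 1291 and 1139 CPM in MIG and 1195 and 1207 CPM in BATF, and Fermt3, the kindlin of blood cells, ranged from 339 to 441 CPM; both were chosen after their values were seen. Of 17 tested ligands and membrane partners 0 passed, with 4 at an unadjusted p under 0.05 (10.8% of all genes) and 0 called by DESeq2. Cd47, a membrane partner of beta3 integrins, and the tetraspanin Cd82 were the most abundant of these, at 376 to 402 and 136 to 146 CPM.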

How the data were processed

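The authors deposited 1 long Cuffdiff table with a value per gene, condition and replicate. The submitters' processing notes list mm9 as the build and TopHat2 2.1.1, Cufflinks 2.2.2 and Cuffdiff as tools; the sources used here do not give the gene annotation. The table holds estimated counts, which the authors' run assigned to each gene before scaling, a scaled fragment signal, and FPKM, per the file headers. Of the estimated counts 97.6% were whole (equal to 0 decimals); all were rounded. The table numbers replicates 0 and 1, which were read as 1 and 2; no label ties them to the titles, so these numbers only name libraries. Replicates differed by more than counting noise (chi-square per gene 14.8 in MIG, 8.10 in BATF), and each counted as 1 sample.

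Counts were tested in R 4.3.3 with edgeR 4.0.16 (filterByExpr, TMM factors 0.988 to 1.01, glmQLFit, glmQLFTest, no covariate) and adjusted by Benjamini-Hochberg over 13008 genes, with a threshold of 0.05. The biological coefficient of variation was 11.3%. SE was obtained as the fitted coefficient over the square root of F, and intervals use the test's total degrees of freedom. CPM is TMM-scaled. Alternatives used DESeq2 1.42.0, limma 3.58.1, other scalings and filters, a replicate block and each library left out. The fit was also run on simulated counts of independent libraries. That simulation had no deviations shared by replicate number and no changes as small as those of the chains. It therefore says nothing about how the fit performs on such differences. The members, gene lists and the rule for named genes were chosen with earlier results of these data known. That rule names the 10 chains and Batf, called genes of 3 integrin lists or otherwise the 2 most abundant of a list, and the 3 nearest genes of the 2 chains with the largest change. The within-number comparisons were added after seeing the data. Promoters came from RefSeq (GRCm38.p6), and no coordinates were converted between builds.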

Additional observations from a re-analysis of the deposited data

How the results depend on the processing

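With all 4 libraries kept, 70 recomputed log2 fold changes of the 10 chains turned sign 0 times and gave 6 new calls: Itgax with no filter, with DESeq2 and with the replicate block, and Itgae, Itgb1 and Itgb3 with the block. With 1 library left out, 8 of 40 values turned sign and 1 was newly called. Those ranges were -0.62 to 0.75 for Itga4, -0.61 to 0.042 for Itgae, -0.26 to 0.060 for Itgal, -0.10 to 0.27 for Itgav, -0.087 to 0.61 for Itgb1, -0.032 to 0.26 for Itgb7, -0.69 to -0.10 for Itgb3, -0.21 to -0.071 for Itga6, 0.069 to 0.25 for Itgb2 and 0.61 to 0.86 for Itgax. Between the libraries numbered 2 alone, the sign turned for Itgal (0.00694) and Itgb1 (-0.11). A fit with 1 library left in a group takes its spread from the other group.

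The replicate numbers were not shown to pair the samples: there are 2 pairs, and no label ties a number to an animal or a day. Deviations of same-numbered libraries correlated at 0.43 over genes of at least 5 CPM and at 0.85 over the chains. With the number as a block, which leaves 1 residual degree of freedom, edgeR called 2 chains higher and 2 lower. Those higher were Itgax (log2 fold change 0.74, edgeR adjusted p = 1.07e-07) and Itgb1 (0.26, 0.0103). Those lower were Itgae (-0.30, 0.00165) and Itgb3 (-0.38, 0.000371). Of all genes the block called 1504 (11.6%, 916 higher and 588 lower), and of the pathway genes 9 higher and 7 lower. Itgb1 was called although its log2 fold change was 0.63 between the libraries numbered 1 and -0.11 between those numbered 2. That call therefore does not show that the 2 pairs agreed.

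All genes called numbered 142 (115 higher, 27 lower) with edgeR, 349 (266 and 83) with no filter, 345 (253 and 92) with DESeq2, 44 (40 and 4) with limma on log2(FPKM + 1) and 81 (71 and 10) with a pseudocount of 0.1. Without 1 library they numbered 248 to 589 (192 to 320 higher, 55 to 269 lower). Chains called higher were 1 with no filter and 1 with DESeq2, and 0 to 1 without 1 library. Pathway genes called higher were 0 with edgeR, 1 with no filter, 1 with DESeq2 and 0 to 2 without 1 library. Those called lower were 1 with edgeR, 0 with limma on log2(FPKM + 1) and 1 to 3 without 1 library. The cause of these differences was not tested. Of 32 pair ratio differences with 1 library left out, 6 turned sign, and 0 of 16 did with other units or pseudocounts. Depth was lowest for Itgax, which had 442 fragments or more in every library.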

Other observations

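Cdh1, which encodes E-cadherin, the ligand of CD103, was itself expressed and ranged widely between libraries, at 5.11 and 42.6 CPM in MIG and 2.48 and 9.74 CPM in BATF. Replicate 2 was the higher library in both groups, as for Itgae, and the groups overlapped (log2 fold change -1.94, edgeR adjusted p = 0.570). Itgam, the alpha chain of Mac-1, stood at 7.68 and 3.20 CPM in MIG and at 6.49 and 2.62 CPM in BATF, so that replicate 1 was the higher library in both groups, as for Itga4. Zbtb7b, which encodes the helper lineage factor ThPOK, was 1 of 4 CD4 and regulatory T cell markers looked up. It had 23.0 and 17.9 CPM in MIG and 44.2 and 34.9 CPM in BATF, and did not pass (log2 fold change 0.95, edgeR adjusted p = 0.0658). Signs were split among these 4 markers, 2 positive and 2 negative. Foxp3 (-0.53) and Cd40lg (-0.26) were negative and Cd4 (0.43) was positive, each at no more than 2.25 CPM in any library. Of the 9 CD8 T cell markers 8 had a negative log2 fold change, against 6698 of all 13008 genes tested, and 0 passed the edgeR test (3 at an unadjusted p under 0.05 against 10.8% of all genes, 0 by DESeq2). In 5 both BATF libraries lay below both MIG libraries, against 19.4% of all genes. Their summed level was 4108 and 3960 CPM in MIG and 3439 and 3685 CPM in BATF. These genes were chosen after their values were seen, and no test of a relation to the integrin chains was made.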
